A study of Mus musculus with 4 samples.

Results

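The regions described here are the accessible chromatin regions that the authors linked to FoxO transcription factors and to core genes of the mTOR pathway, in satellite cells, the resident stem cells of skeletal muscle, sorted while quiescent. They are the rows whose deposited gene name is Foxo1, Foxo3, Foxo4, Tsc1, Tsc2, Mtor, Rptor, Akt1 or Akt2. There were 8 such regions, for 7 of the 9 genes, among 35019 regions in all and 11829 with a gene name. Foxo3 had 2 regions, Foxo1, Foxo4, Tsc1, Mtor, Akt1 and Akt2 had 1 each, and Tsc2 and Rptor had 0. The groups were sorted satellite cells of mdx mice, which carry a mutation in the dystrophin gene Dmd in every cell and model Duchenne muscular dystrophy, and those of wild type mice. There were 2 libraries per group, 4 in all, while the design text names 3 mice per condition. The labels and files state neither strain, age, sex and sorting markers nor whether each library came from its own animal. P-values here thus measure how far single libraries of a group differ, a spread that may be technical only. ATAC-seq counts fragments that the Tn5 transposase cuts from open chromatin, so a low value can mean fewer cells with an open region or less opening per cell, and these cannot be told apart.

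FoxO proteins are forkhead transcription factors that activate genes of cell cycle arrest, stress resistance, atrophy and autophagy. Growth factors signal through PI3K to the AKT kinases, which phosphorylate FoxO proteins and so keep them out of the nucleus, and which also relieve the block that the TSC1-TSC2 complex places on the kinase mTOR. In mouse satellite cells FoxO3 is known to support quiescence through Notch signalling, and mTORC1, the mTOR complex that contains Raptor (Rptor), is known to drive the alert state that precedes activation.

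The start of each gene frames its region, and the stretches below are those of the FoxO pair and the AKT pair whose values differed most within each family. Each line gives 250 bases before a RefSeq gene start (GRCm38.p6), 5′ to 3′ on the gene's strand. Capitals mark matches, on either strand, to any of the motifs searched. These were the GC box with the letters GGGCGG, the box named for its letters CCAAT, and the forkhead motif, which FoxO proteins bind, with the letters GTAAACA. Motifs of ETS factors (letters CCGGAAG, in 6.91% of all RefSeq windows), of the AP-1 factors (letters TGANTCA, in 6.75%) and of CREB (letters TGACGTCA, in 1.55%) were searched too. So were the E-box (letters CACGTG, in 6.02%), which lysosomal gene regulators and other factors bind, and the NRF1 and YY1 motifs (the second in 0.207%). Matches to GGGCGG may overlap one another.
Foxo1 chr3:52268087-52268336 (+): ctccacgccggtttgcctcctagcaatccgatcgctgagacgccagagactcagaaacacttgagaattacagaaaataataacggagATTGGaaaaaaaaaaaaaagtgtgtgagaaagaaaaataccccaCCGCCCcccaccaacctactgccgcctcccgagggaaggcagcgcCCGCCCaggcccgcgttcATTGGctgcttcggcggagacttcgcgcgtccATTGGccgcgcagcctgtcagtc
Foxo3 chr10:42276696-42276945 (-): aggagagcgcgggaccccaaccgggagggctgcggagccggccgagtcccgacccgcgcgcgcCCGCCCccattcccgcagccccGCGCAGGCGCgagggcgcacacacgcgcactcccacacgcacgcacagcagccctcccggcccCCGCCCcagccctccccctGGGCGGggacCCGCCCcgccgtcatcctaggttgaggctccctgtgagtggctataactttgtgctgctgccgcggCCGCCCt
Akt1 chr12:112674277-112674526 (-): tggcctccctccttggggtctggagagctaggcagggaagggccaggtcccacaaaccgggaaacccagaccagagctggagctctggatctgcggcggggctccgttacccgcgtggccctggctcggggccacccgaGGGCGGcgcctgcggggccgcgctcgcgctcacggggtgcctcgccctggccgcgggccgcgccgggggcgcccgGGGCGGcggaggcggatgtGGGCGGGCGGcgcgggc
Akt2 chr7:27591302-27591551 (+): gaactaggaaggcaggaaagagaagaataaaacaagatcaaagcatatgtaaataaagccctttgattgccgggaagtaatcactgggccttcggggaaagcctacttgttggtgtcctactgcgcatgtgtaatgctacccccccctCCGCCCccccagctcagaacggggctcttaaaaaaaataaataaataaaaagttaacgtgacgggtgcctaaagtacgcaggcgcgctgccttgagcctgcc

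The accessible regions covered all 250 bases shown for Foxo1 and Foxo3, 234 of those for Akt1 and 163 of those for Akt2. The Foxo3 and Akt1 stretches were GC-rich, at 76.4% and 78.4% G or C with 31 CpG dinucleotides each. The Foxo1 stretch had 56% and 20 CpG, and that of Akt2 48.8% and 10 CpG. Over all 32851 RefSeq windows the medians were 52.4% and 6 CpG. GGGCGG matched 2 times before Foxo1, 5 times before Foxo3, 4 times before Akt1 and 1 time before Akt2, and 32.7% of all windows hold it. CCAAT matched 3 times before Foxo1 and 4 times before Mtor, and 33.8% of windows hold it. The NRF1 motif matched 1 time before Foxo3, against 3.74% of windows. GTAAACA matched in none of these 4 stretches, and it is in 3.17% of all windows. An alternative Akt1 start farther upstream, outside the accessible region, has 1 such match. A match describes the letters of the window and is not a binding site. RefSeq windows were found for 8 of the 9 genes, 12 windows in all, and none was matched for Foxo4.

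Values are scaled reads per region, and 1 scaling factor per library was inferred from the values themselves. Recovered reads and their Poisson intervals rest on these inferred factors. The libraries held 3208475 (mdx replicate 1), 3607633 (mdx replicate 2), 3693096 (wild type replicate 1) and 8165206 (wild type replicate 2) recovered reads in the listed regions. Of the nuclear reads, 52.75% and 57.21% lay in promoter regions (within 1 kb of the linked gene's start) in mdx, against 64.15% and 61.09% in wild type. All 8 linked regions are promoter regions by this definition. The promoter share differs between the same groups that are compared below, and its part in their values was not tested. All 12 satellite cell markers of a list had a linked region, and their summed values were 2662 and 2709 in mdx and 3276 and 3178 in wild type. Of 8 haematopoietic markers 1 had a region (sums 19 and 21 against 9 and 15), and of 8 endothelial markers 2 (239 and 194 against 198 and 204). Regions were linked to 8 of 11 fibro-adipogenic markers (1533 and 1398 in mdx, 1325 and 1338 in wild type), 7 of 11 myonuclear markers (880 and 984 against 831 and 855) and 4 of 7 pericyte and smooth muscle markers (370 and 295 against 242 and 308). The part of these other cells in the results below was not tested.

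In the comparison of mdx with wild type, the median of the 8 regions was a log2 fold change of -0.35, and 7 of the 8 lay below 0. The FoxO regions ran from -0.97 at Foxo1 to -0.35 at both Foxo3 regions, Akt1 was at -1.37, and Akt2 was the only member above 0, at 0.09. None of the 8 passed the test: 0 of 8 had an adjusted p under 0.05 (limma over all tested regions), 3 had an unadjusted p under 0.05, and voom weights on the recovered reads called 1, Foxo1. All 8 regions passed the filter on low values. Of 33161 tested regions 4.18% passed, 3.3% as higher and 0.881% as lower, and of 10139 named promoter regions 2.23% passed, 0.444% as higher and 1.79% as lower. An unadjusted p under 0.05 was found at 21.0% of named promoter regions. The median of the named promoter regions was -0.26, and 77.1% of them lay below 0, so a value slightly below 0 is the usual one for a promoter here. The balance of calls depends on the scaling: 1095 regions rose and 292 fell as reported, 1821 and 159 with promoter medians set equal, and 1222 and 3465 with distal medians set equal. The median over all tested regions was -0.01 as reported, 0.19 under the promoter centring and -0.35 under the distal one.

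**Figure D1:**
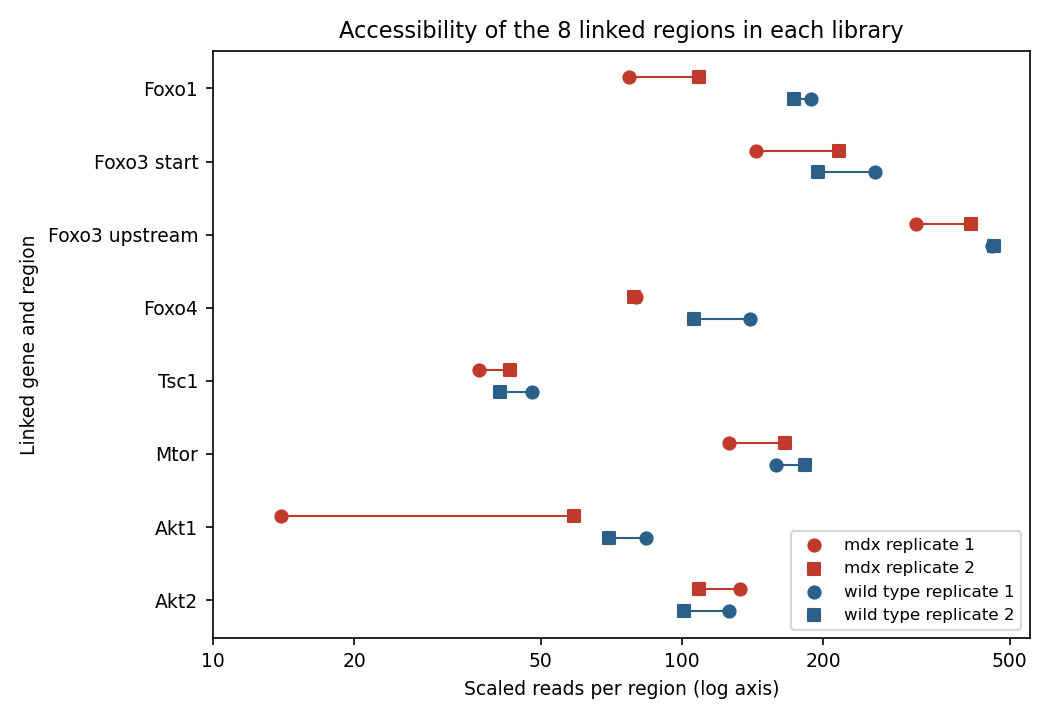
Scaled reads (horizontal log axis) in each of the 8 linked regions, with mdx above wild type in each row, 1 point per library and a line between the libraries of a group. At Foxo1, Foxo4, Akt1 and the upstream Foxo3 region both mdx libraries lie below both wild type libraries, and at the other 4 regions the groups overlap.

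Both mdx libraries lay below both wild type libraries at 4 of the 8 regions (Foxo1, the upstream Foxo3 region, Foxo4 and Akt1), and above them at 0. Among named promoter regions this order was found at 45.6%, and among all tested regions at 25.9%, so 4 of 8 is close to the share of promoters in general.

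Foxo1 encodes the FoxO factor best known for its part in insulin signalling and muscle atrophy. Its region, on chromosome 3 from 52267990 to 52268769 (mm10), spans the gene start and has its centre 44 bp from it. It held 77 and 109 scaled reads in mdx replicates 1 and 2, against 188 and 173 in wild type replicates 1 and 2. Both mdx libraries were lower than both wild type libraries, an order found at 45.6% of named promoter regions. The gap exceeded the spread within either group, and the share of promoters with so wide a gap was not counted. The means were 93.0 ± 22.6 in mdx and 180.5 ± 10.6 in wild type (SD, n = 2 each), a 1.96-fold lower value with a log2 fold change of -0.97 (SE 0.26, 95% interval -1.53 to -0.41), and the adjusted p of 0.0549 (limma) missed the threshold. Of the named promoter regions 4.7% had a lower log2 fold change. The recovered reads were 56 and 94 in mdx and 154 and 352 in wild type, so the exact Poisson intervals of the scaled values were 58.5 to 100.5 and 88.3 to 133.7 in mdx, and 159.6 to 220.4 and 155.6 to 192.3 in wild type. These intervals cover counting error only. The Foxo1 region passed as lower in 8 of the 12 alternatives that kept all 4 libraries and the threshold. Over the 12, adjusted p ran from 0.00324 to 0.0893 (limma). The lowest came with crossed replicate numbers, an alternative chosen after seeing the data, and the next with distal medians set equal (0.00495). The 8 also include the replicate block (0.0292), although the replicate numbers are not taken to pair the libraries. The region did not pass with promoter medians set equal, no filter, a pseudocount of 0.1 or autosomes only. With 1 library left out, its log2 fold change ran from -1.22 without mdx replicate 2 to -0.72 without mdx replicate 1, and with all 4 it ran from -1.31 (distal medians set equal) to -0.77 (promoter medians set equal).

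Foxo3, the FoxO factor tied to satellite cell quiescence in mice, had the most accessible regions of the 7 genes per kb. The region at the gene start, on chromosome 10 from 42276484 to 42276949, held 144 and 216 scaled reads in mdx, against 258 and 195 in wild type. The groups overlapped there, because mdx replicate 2 lay above wild type replicate 2. Its log2 fold change was -0.35 (95% interval -0.89 to 0.20, limma, adjusted p = 0.443). The upstream region, from 42277589 to 42278375, lies outside the gene with its centre 1227 bp from the start. It held 315 and 414 scaled reads in mdx, against 459 and 463 in wild type, and here the mdx libraries were both lower. The log2 fold change was again -0.35 (95% interval -0.76 to 0.05, limma, adjusted p = 0.282). Per kb of region, the upstream value was 1.29 and 1.13 times that of the start region in the mdx libraries, against 1.05 and 1.40 times in the wild type libraries. The ratio of the Foxo3 regions thus overlapped between groups. Neither region passed in any of the 13 alternatives with all libraries, and with promoter medians set equal both were at -0.15.

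Foxo4 encodes another factor of the family and lies on the X chromosome. Its region, from 101254036 to 101254683, held 80 and 79 scaled reads in mdx, against 140 and 106 in wild type. The mdx libraries were nearly equal and both lower, while the wild type libraries differed more from each other. The log2 fold change was -0.61 (SE 0.27, 95% interval -1.20 to -0.02), and the adjusted p was 0.203 (limma). It passed only under the distal centring (-0.95, limma, adjusted p = 0.0365), among 12 alternatives with all libraries that tested it. Summed over the 4 FoxO regions, the scaled reads were 616 and 818 in mdx and 1045 and 937 in wild type.

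**Figure D2:**
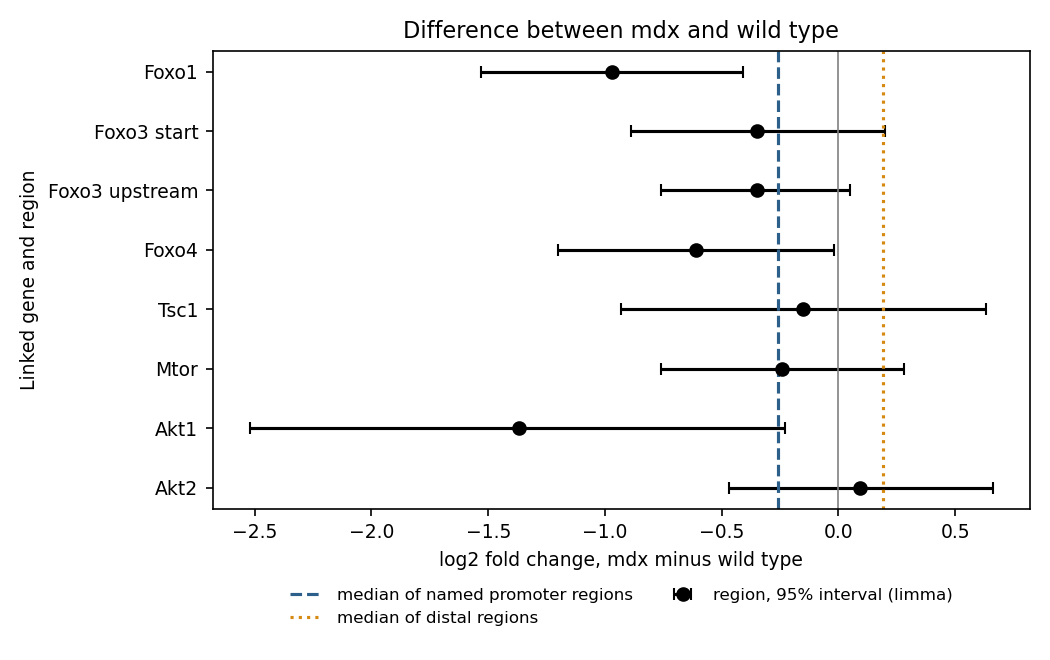
The horizontal axis gives the log2 fold change of mdx over wild type for each linked region, with its 95% interval from limma. The intervals of Foxo1, Foxo4 and Akt1 lie below 0, no region passed after adjustment, and the dashed and dotted lines mark the medians of named promoter regions (-0.26) and distal regions (0.19).

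Of the AKT kinases, Akt1 had the lowest fold change of all members and Akt2 the highest. Akt1 encodes the widely expressed isoform that acts in growth and survival. Its region, on chromosome 12 from 112673983 to 112674510, held 14 and 59 scaled reads in mdx replicates 1 and 2, against 84 and 70 in wild type. Both mdx libraries were lower, but replicate 1 lay far below replicate 2. The log2 fold change was -1.37 (SE 0.53, 95% interval -2.52 to -0.23, limma, adjusted p = 0.148). The recovered reads in mdx were 10 and 51, with exact Poisson intervals for the scaled values of 6.6 to 25.4 and 44.1 to 77.9, so the mdx libraries differed from each other beyond counting error. This value rests on mdx replicate 1: it was -0.37 without that library, and -2.37 without mdx replicate 2. The Akt1 region fell under the distal centring (-1.71, limma, adjusted p = 0.0144), with the replicate block (0.0205) and with crossed replicate numbers (0.00955). The crossed numbers were chosen after seeing the data, and the replicate numbers are not taken to pair the libraries.

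Akt2 encodes the isoform best known for insulin-stimulated glucose uptake. Its region, on chromosome 7 from 27591389 to 27592143, held 133 and 109 scaled reads in mdx, against 126 and 101 in wild type. The groups overlapped, and the log2 fold change was 0.09 (95% interval -0.47 to 0.66, limma, adjusted p = 0.868). Its sign turned without mdx replicate 1 (-0.05), without wild type replicate 2 (-0.06) and under the distal centring (-0.24), which lowers every region. Per kb of region, Akt2 was 6.64 and 1.29 times as accessible as Akt1 in the mdx libraries 1 and 2, against 1.05 and 1.01 times in the wild type libraries. The higher ratio in mdx was mostly that of replicate 1.

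Mtor encodes the kinase at the core of both mTOR complexes, and Tsc1 encodes hamartin, a subunit of the complex that inhibits it. The Mtor region, on chromosome 4 from 148448295 to 148448738, held 126 and 166 scaled reads in mdx, against 159 and 183 in wild type. The groups overlapped, with a log2 fold change of -0.24 (95% interval -0.76 to 0.28, limma, adjusted p = 0.594), close to the median of named promoters. The Tsc1 region, on chromosome 2 from 28640921 to 28641276, held 37 and 43 scaled reads in mdx, against 48 and 41 in wild type. Its log2 fold change was -0.15 (95% interval -0.93 to 0.63, limma, adjusted p = 0.844), and the groups again overlapped. With promoter medians set equal its sign turned (0.05). These intervals still allow a fall to about the size seen at Foxo4, so they do not show that Mtor and Tsc1 were alike in the groups.

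Tsc2 encodes tuberin, the partner of hamartin, and Rptor encodes Raptor, the scaffold of mTORC1. Within Tsc2, Rptor or 20 kb on either side, by RefSeq position, the table used here had 0 regions. A region can be absent because it was not called or not listed, so this does not show closed chromatin. Around the other members, the regions next to them were few. Foxo1 had 1 other region within 20 kb, upstream, from 52257881 to 52258045 and with no linked gene. It held 8 and 2 scaled reads in mdx against 29 and 16 in wild type, and its log2 fold change of -2.12 did not pass (limma, adjusted p = 0.112), and values this low rest on few reads. Foxo3 had 2 regions inside the gene with no linked gene, at 32 and 19 in mdx against 33 and 36 in wild type, and at 50 and 42 against 39 and 39. Akt2 had 2 inside it, at 28 and 17 in mdx against 10 and 23 in wild type, and at 12 and 10 against 5 and 9. None of these regions passed (limma, adjusted p from 0.559 to 0.747). Of the named neighbours within 20 kb, Med12 near Foxo4 was at -0.65 (158 and 159 in mdx, 244 and 253 in wild type) and Zbtb42 near Akt1 at -1.12 (33 and 24 in mdx, 76 and 51 in wild type). Neither passed (limma, adjusted p = 0.093 and 0.111), and Siva1, on the other side of Akt1, was at -0.32 (adjusted p = 0.365). Exosc10 near Mtor was at 0.21 (23 and 24 in mdx, 29 and 14 in wild type) and the Gm614 region at the end of Foxo4 at -0.38 (76 and 94 in mdx, 95 and 128 in wild type), and neither passed (limma, adjusted p = 0.845 and 0.453).

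Levels per kb of region allow the genes to be set beside each other. In mdx the order was the upstream Foxo3 region (463.7 ± 89.1 scaled reads per kb, SD, n = 2), Foxo3 at the start (387.1 ± 109.5), Mtor (329.6 ± 63.8), Akt2 (160.5 ± 22.5), Foxo4 (122.9 ± 1.1), Foxo1 (119.4 ± 29.0), Tsc1 (104.2 and 121.1) and Akt1 (69.3 ± 60.4). In wild type it was the upstream Foxo3 region (586.5 ± 3.6), Foxo3 at the start (487.1 ± 95.8), Mtor (386.0 ± 38.3), Foxo1 (231.7 ± 13.6), Foxo4 (190.1 ± 37.2), Akt2 (150.5 ± 23.4), Akt1 (146.1 ± 18.8) and Tsc1 (125.4 ± 13.9). Foxo1 was thus in place 6 in mdx and in place 4 in wild type. In mdx, both libraries of Mtor lay above both of Akt2, and those of Akt2 above those of Foxo4, while the ranges of the other neighbours overlapped. Within each mdx library, though, the upstream Foxo3 region lay above the Foxo3 start region and that above Mtor. In wild type the ranges of the upstream Foxo3 region, the Foxo3 start region, Mtor, Foxo1 and Foxo4 followed each other without overlap, while Foxo4, Akt2, Akt1 and Tsc1 each overlapped the next. The median of named promoter regions was 227.6 scaled reads per kb over the 4 libraries. The Foxo3 regions stood above 80.1% and 86.1% of named promoters and Mtor above 71.9%, while Akt1 stood above 14.4%.

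The promoters whose pattern over the 4 libraries was most like that of the Foxo3 start region belonged to Pou4f1, Sertad3 and Myo18a, at Euclidean distances of 0.0181, 0.0226 and 0.0343 on centred log2 values. Those most like Mtor belonged to Sox30, 9930021J03Rik and Spin1 (0.0231, 0.0311 and 0.0417). With 10138 candidates and only 4 libraries such closeness is common: 337 promoters lay within 0.2 of Foxo3 and 328 within 0.2 of Mtor.

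Other genes of the pathway were described with a list of 82, from insulin receptors to the outputs of mTORC1, of which 70 had 77 linked regions, all tested. Of the 77, 0 rose, 2 fell and 75 did not pass. As 72 of them are promoter regions, the nearest background is that of named promoters, of which 0.444% rose and 1.79% fell, while 3.3% and 0.881% of all tested regions did. The median log2 fold change of the 72 promoter regions among them was -0.39, beside -0.26 over named promoters. Among those that fell was the promoter of Prkaa1, which encodes a catalytic subunit of the energy sensor AMPK. Prkaa1 held 391 and 393 scaled reads in mdx, against 709 and 578 in wild type, and its log2 fold change was -0.71 (limma, adjusted p = 0.0393). Both mdx libraries lay below both wild type libraries by more than the spread within a group, in a region named because it passed. The order alone was found at 46 of the 72 promoter regions of the list (63.9%) and at 45.6% of named promoters. The share with so wide a gap was not counted. The Prkaa1 call ended with cyclic loess (-0.49, adjusted p = 0.0595), promoter medians set equal (-0.51, 0.0629) and no filter (0.0697), all limma.

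The next smallest p-values on that list were at Rragd and Mios, and neither passed. Rragd encodes a Rag GTPase that brings mTORC1 to the lysosome. Its promoter held 90 and 45 in mdx, against 161 and 146 in wild type (a log2 difference of -1.25, limma, adjusted p = 0.0512). Mios encodes a subunit of GATOR2, an amino acid signalling complex, and held 427 and 457 in mdx, against 666 and 676 in wild type (-0.60, limma, adjusted p = 0.0517). In both promoters, picked for small p-values, both mdx libraries were lower. That order was found at 63.9% of the promoter regions of the list and at 45.6% of named promoters. By role, the median log2 fold change was -0.43 for AMPK and stress inputs (7 regions, 1 fell). It was -0.27 for phosphatases and kinases around AKT, a group that also holds Foxo6 (11 regions). It was -0.30 for insulin and IGF receptors and PI3K (10 regions). It was -0.51 for mTOR complex subunits and their assembly factors (5 regions), -0.24 for TSC and Rheb (3 regions) and -0.34 for Rag GTPases and Ragulator (14 regions). Amino acid sensors with GATOR and KICSTOR lay at -0.43 (16 regions) and outputs of mTORC1 at -0.46 (11 regions). In these last 6 groups 0 regions passed (limma), and regions with an unadjusted p under 0.05 numbered 1, 3, 0, 3, 5 and 2. They numbered 3 of 7 for AMPK and stress inputs and 6 of 11 for phosphatases and kinases around AKT. Over the list they numbered 23 of 77 (29.9%), and among its promoter regions 23 of 72 (31.9%). These shares stand beside 21.0% of named promoter regions and 23.0% of all tested regions. Foxo6, counted in the group around AKT, is a FoxO gene and encodes neither a phosphatase nor a kinase. Its promoter was at -0.54 (limma, unadjusted p = 0.0327, adjusted p = 0.176) and is among the 6 regions of that group. Its other region, 4192 bp from the start, was at 0.27 (limma, adjusted p = 0.446).

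**Figure D3:**
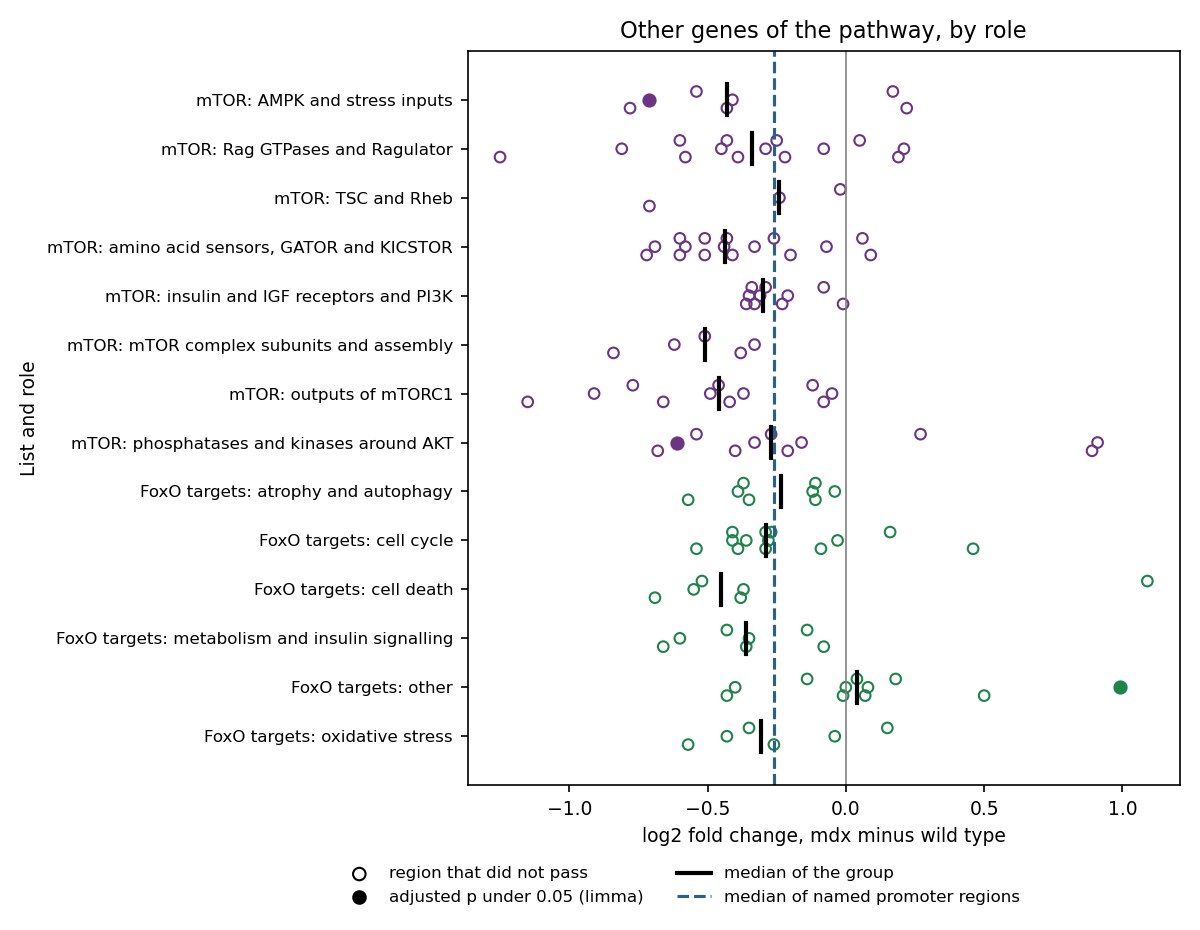
The horizontal axis gives the log2 fold change of mdx over wild type for 77 regions of the mTOR pathway list (purple) and 51 of the FoxO target list (green) by role, with filled points for an adjusted p under 0.05. The filled points include Prkaa1, below 0, and the Ctgf region 1544 bp from the gene start, above 0, and 5 genes stand on both lists.

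Of 46 genes known as FoxO targets in various tissues, 38 had 51 linked regions, all tested, of which 1 rose, 0 fell and 50 did not pass. Over all tested regions 3.3% rose and 0.881% fell, and over named promoters 0.444% and 1.79%, so a single call in 51 is near the general rate. Which direction prevails depends on the setting: 0 rose and 13 fell with distal medians set equal. The median over the 38 promoter regions was -0.32. The region that rose lies 1544 bp from the start of Ctgf, which encodes a matricellular growth factor linked to fibrosis and is also a target of YAP. It held 177 and 162 scaled reads in mdx, against 81 and 89 in wild type, and its log2 fold change was 0.99 (limma, adjusted p = 0.044). Both mdx libraries lay above both wild type libraries. That order was found at 7721 of 21869 distal regions (tested regions that are not promoter regions) and at 8900 of 33161 tested regions. The Ctgf region at the gene start held 247 and 223 in mdx, against 261 and 369 in wild type, and did not pass (-0.40, limma, adjusted p = 0.29). The call at the region 1544 bp away ended with distal medians set equal (0.65, adjusted p = 0.115), no filter (0.0697) and a pseudocount of 0.1 (0.0545), all limma.

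Among the other FoxO targets the smallest p-values were at Pdk4, Bcl2l11 and Ccng2, and none passed. Pdk4, a kinase that restrains glucose oxidation, held 1899 and 2081 in mdx, against 2698 and 2655 in wild type (-0.43, limma, adjusted p = 0.0566), but after cyclic loess its adjusted p was 0.988 (limma), with a log2 fold change near 0. Bcl2l11 encodes the cell death factor BIM, and its promoter held 203 and 193 in mdx, against 326 and 314 in wild type (-0.69, limma, adjusted p = 0.0638). A second Bcl2l11 region, 1615 bp from the start, held 467 and 475 in mdx, against 698 and 655 in wild type (-0.52, limma, adjusted p = 0.0774). Ccng2, a cyclin of cell cycle arrest, held 453 and 487 in mdx, against 735 and 638 in wild type (-0.54, limma, adjusted p = 0.0755). In each of these 4 regions, picked for small p-values, both mdx libraries were lower. That order was found at 23 of the 51 regions of the list (45.1%) and at 25.9% of all tested regions. Among the 38 promoter regions of the list it was found at 21 (55.3%), beside 45.6% of named promoters. By role the medians were -0.29 for cell cycle (13 regions), -0.31 for oxidative stress (6), -0.45 for cell death (6), -0.23 for atrophy and autophagy (8), -0.36 for metabolism and insulin signalling (7) and 0.04 for the remaining targets (11).

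**Figure D4:**
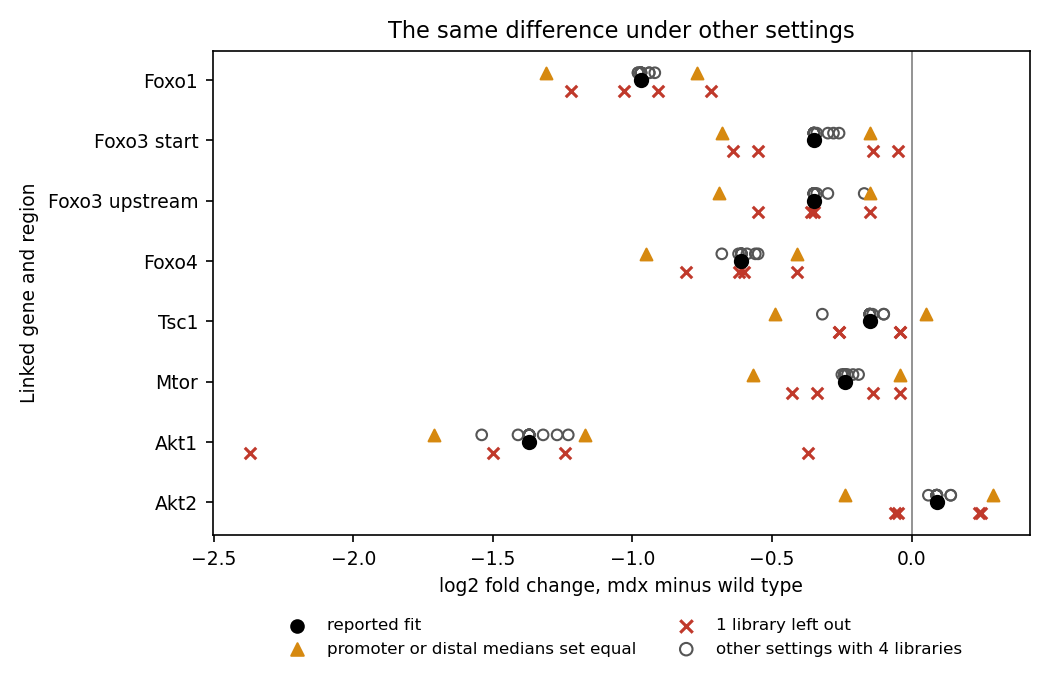
The horizontal axis gives the log2 fold change of mdx over wild type for each linked region in the reported fit (black), with promoter or distal medians set equal (orange triangles), in other settings with 4 libraries (open circles) and with 1 library left out (crosses). Foxo1, both Foxo3 regions, Foxo4, Mtor and Akt1 stayed below 0 in all of them, and Akt1 without mdx replicate 1 lies at -0.37.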

How the data were processed

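ATAC-seq libraries of sorted quiescent satellite cells from mdx mice (2 libraries) and wild type mice (2 libraries) were analysed. The submitters' processing notes name build mm10 and MACS2 2.1.0, STAR 2.5.3a, DESeq, DESeq2, Trimmomatic 0.33 and Picard 2.9.0, without roles. Neither duplicate removal, a shift of reads for Tn5 nor the pooling of reads for region calling is described in them. The deposited table lists 35019 regions, some with a linked gene, and 1 value per library. Coordinates are printed unchanged, and the table does not say if starts count from 0 or 1. The deposited values have the unit score: whole numbers that skip a regular series of integers in 3 libraries, which reads multiplied by 1 factor per library and rounded would give. The factors found were 1.382 (mdx replicate 1), 1.162 (mdx replicate 2), 1.222 (wild type replicate 1) and 0.492 (wild type replicate 2). Division by them gave the recovered reads, which were 10 to 941 per member and library. In wild type replicate 2, whose factor is below 1, neighbouring read counts share a value, so its recovered reads are approximate. The fraction of a region that lies within its gene, also deposited, served only as description.

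Group differences were fitted on log2(value + 1) by limma 3.58.1 (R 4.3.3), with a mean-dependent prior variance and group as the only term. Regions needed a value of 10 or more in 2 or more libraries. P-values were adjusted by Benjamini-Hochberg over all 33161 tested regions, with a threshold of 0.05, and fold changes on this scale understate the change of low regions. The fit and the search for factors were tested on simulated data. An exact permutation test of 2 against 2 cannot go below 0.333, two-sided, and was not used. Promoter regions are those that reach within 1 kb of the start of their linked gene. The members, the gene lists and the tests were chosen with earlier results of these data known. All members are named with every linked region. From each list the regions that passed are named, with further genes by smallest p up to 4, and 1 region that the rule names is not reported here. List genes with no row by their symbol were sought by RefSeq synonym, which matched Gatsl2 and Gatsl3 to Castor2 and Castor1. Promoter sequences are from RefSeq (GRCm38.p6). Alternatives covered scaling, filter, pseudocount, threshold, autosomes, voom, each library left out in turn and the replicate number as a block.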

Additional observations from a re-analysis of the deposited data

How the results depend on the processing

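With 2 libraries per group, leaving out any library leaves 1 in a group, which is assumed to vary like the other group, and calls then ranged from 0 to 0 among all tested regions, the members, the mTOR pathway list and the FoxO target list. As reported, 1387 regions passed, with 0 members, 2 regions of the mTOR pathway list and 1 of the FoxO target list. All counts here are from limma with adjusted p under 0.05 unless said. Over all regions the count was 2245 with cyclic loess, 4687 with distal medians set equal, 458 with no filter, 2761 with the replicate block and 3372 at an adjusted p under 0.1. Among members, 1 passed with scaling by nuclear totals, cyclic loess, a mean value of at least 50, a pseudocount of 5, voom or the threshold of 0.1 (Foxo1 in each), and 3 passed with distal medians set equal. With the replicate block 2 members passed, 5 regions of the mTOR pathway list did, and 1 FoxO target region did. On the mTOR pathway list the count was 5 with nuclear totals, 0 with promoter medians set equal, 27 with distal medians set equal, 0 with no filter, 11 with a mean of at least 50, 6 with a pseudocount of 5, 4 with autosomes only, 7 with voom and 11 at the threshold of 0.1. All calls on that list were lower in mdx. On the FoxO target list it was 2 with nuclear totals (1 higher, 1 lower), 2 with cyclic loess (both higher), 13 with distal medians set equal (0 higher, 13 lower), 0 with no filter, 4 with a mean of at least 50 (1 higher, 3 lower), 0 with a pseudocount of 0.1, 2 with autosomes only (1 higher, 1 lower), 3 with voom (1 higher, 2 lower) and 5 at the threshold of 0.1 (1 higher, 4 lower). The cause was not tested. The sign turned for Tsc1 with promoter medians set equal (0.05) and for Akt2 with distal medians set equal (-0.24), without mdx replicate 1 (-0.05) and without wild type replicate 2 (-0.06). With 1 library left out Akt2 ranged from -0.06 to 0.25. A mean of at least 50 left no value for Tsc1, and autosomes only left none for Foxo4.

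Equal replicate numbers did not deviate together (correlation -0.109), so the numbers are not taken to pair the libraries. With the numbers crossed, an alternative chosen after seeing the data, 5461 regions passed, with 2 members, 20 regions of the mTOR pathway list and 11 of the FoxO target list (2 higher, 9 lower).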

Other observations

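A few regions of both lists had higher values in mdx, and these were chosen after their values were seen. The promoter of Tnfsf10, which encodes the death ligand TRAIL, held 46 and 46 scaled reads in mdx, against 17 and 26 in wild type (a log2 difference of 1.09, limma, adjusted p = 0.144). The promoter of Inpp4b, a lipid phosphatase that limits AKT signalling, held 46 and 71 in mdx, against 27 and 34 in wild type, and its log2 fold change was 0.89 (limma, adjusted p = 0.186). The promoter of Cdkn2b, which encodes the cell cycle inhibitor p15, held 460 and 503 in mdx, against 308 and 398 in wild type, at 0.46 on the log2 scale (limma, adjusted p = 0.167). The promoter of Sgk1, a kinase related to AKT, held 28 and 15 in mdx, against 11 and 10 in wild type, with a log2 fold change of 0.91 (limma, adjusted p = 0.367). In each of these the mdx libraries lay above the wild type libraries, and none passed. That order was found at 6 of 77 regions of the mTOR pathway list, at 6 of 51 of the FoxO target list and at 884 of 10139 named promoter regions.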
